A study of Homo sapiens with 6 samples.

Results

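The genes described here are the effectors of the Hippo pathway and a set of genes that the effector YAP switches on. They comprised 10 genes chosen by symbol, the coactivators YAP1 and WWTR1 (TAZ), the DNA-binding partners TEAD1, TEAD2, TEAD3 and TEAD4, and the targets CCN1 (CYR61), CCN2 (CTGF), ANKRD1 and AMOTL2, out of 18665 genes with a probe, and they were read by 14 of the 48803 probes. All probes that the platform annotation assigned to a member symbol were kept, whatever their values. Illumina Human-6 expression arrays had been run on total RNA from neural stem cell (NSC) and embryonic stem cell (ESC) cultures of 3 human lines, H1, HSF1 and HSF6, with 1 array for each line and stage. NSC cultures were neural derivatives of the same lines. The Rutgers protocol, used for H1, was adherent, with B27 and N2 supplements, a diluted Matrigel coating and bFGF. The study cites an earlier report for the differentiation of HSF1 and HSF6 and does not describe it. ESC cultures were the undifferentiated starting cells, which for H1 were grown without feeder cells. The HSF1 and HSF6 cultures came from UCLA and the H1 cultures were grown at Rutgers, so line, site and culture protocol cannot be told apart. The replicates of a stage are therefore different lines, and each error given below is the spread between lines within a stage.

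In the Hippo pathway the MST and LATS kinases phosphorylate YAP and TAZ, which keeps them in the cytoplasm. Unphosphorylated YAP and TAZ enter the nucleus, where they bind DNA through TEAD factors and activate genes such as CCN1, CCN2 and ANKRD1. Because the control acts on protein, the mRNA of YAP1 or WWTR1 does not report how much of the protein is active. In pluripotent cells the pathway is studied for its response to cell contact and substrate stiffness, and TEAD4 is known in the mouse for its part in specifying trophectoderm.

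The promoter sequences of the target genes are shown because they carry the letters through which TEAD factors are known to bind DNA. RefSeq start sites (GRCh38.p14) gave windows from 250 bases before to 50 bases after the start for 7 of the 10 genes, 10 windows in all, and CCN1, TEAD1 and TEAD4 had no window in the table used. The TEAD core CATTCC was searched on both strands (GGAATG on the other), together with the AP-1 motif TGANTCA, which reads the same on both strands and shared no bases with a CATTCC match in these windows. CATTCC was present in windows of 4 genes. CCN2 had 3 matches, starting 169, 104 and 95 bases before the start, ANKRD1 had 2, starting 220 and 128 bases before it, and AMOTL2 and YAP1 had 1 each, starting 69 and 162 bases before it. TGANTCA was found only in ANKRD1, starting 195 bases before the start. Of all 35116 windows of this length, 14% held at least 1 CATTCC, 1.37% at least 2 and 0.128% at least 3, and 7.71% held TGANTCA. A match is a description of the sequence and was not tested for binding. The stretch before the start is printed for the 3 target genes, each read from the minus strand, for CCN2 chr6:131951373-131951622, for ANKRD1 chr10:90921088-90921337 and for the AMOTL2 start that held the match chr3:134374448-134374697. Capitals mark CATTCC or GGAATG in all 3 genes and also the TGANTCA match in ANKRD1.
CCN2: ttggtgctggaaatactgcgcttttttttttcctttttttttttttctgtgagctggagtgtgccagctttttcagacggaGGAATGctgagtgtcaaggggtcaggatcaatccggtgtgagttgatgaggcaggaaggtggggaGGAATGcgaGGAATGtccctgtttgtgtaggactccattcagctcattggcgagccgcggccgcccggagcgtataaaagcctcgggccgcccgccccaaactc
ANKRD1: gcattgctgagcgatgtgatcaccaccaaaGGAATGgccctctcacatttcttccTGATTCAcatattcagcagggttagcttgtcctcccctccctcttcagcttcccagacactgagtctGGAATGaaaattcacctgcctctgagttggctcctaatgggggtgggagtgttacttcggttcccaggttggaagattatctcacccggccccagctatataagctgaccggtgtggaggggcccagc
AMOTL2: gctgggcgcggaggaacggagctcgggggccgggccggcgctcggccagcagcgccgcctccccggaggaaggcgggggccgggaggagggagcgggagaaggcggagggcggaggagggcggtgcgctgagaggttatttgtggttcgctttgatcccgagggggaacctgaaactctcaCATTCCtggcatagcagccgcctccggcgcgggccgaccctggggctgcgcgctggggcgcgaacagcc

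Signals were the deposited intensities, on a linear scale with a background near 127, and a signal above 145 was counted as above background. The summed background-corrected signal of 9 pluripotent cell markers was 393 to 1145 in NSC and 40938 to 60252 in ESC, with NANOG, POU5F1 and ZFP42 below the limit on every NSC array. For 9 neural progenitor markers it was 5900 to 16234 in NSC and 1115 to 1770 in ESC, although SOX1 was below the limit on all 6 arrays. NANOG was also below it in the HSF1 ESC culture, at 124. The H1 NSC culture had the lowest sums of the NSC arrays for neural progenitor and for 5 neuron markers. Its sum for the neuron markers was 3315, against 15379 and 18270 in HSF1 and HSF6 NSC and 2089 to 2502 in ESC. In H1 NSC the progenitor markers HES5 (135), PAX6 (138), MSI1 (142) and SOX1 (119) were below the limit. SOX9 (2907), NR2F1 (1874), NES (886), SLC1A3 (577) and FABP7 (243) were above it. Within H1, NES, MSI1 and TUBB3 changed by -0.51, -1.69 and -1.06 log2, and SOX9, NR2F1, SLC1A3 and FABP7 by 3.99, 6.13, 1.04 and 0.87. The other neuron markers, DCX, STMN2, SNAP25 and MAP2, rose within H1 by 2.22, 3.06, 2.39 and 1.78 log2. H1 NSC had the highest sum for 10 mesenchymal cell markers, at 159770, against 42431 and 74898 in the other NSC cultures and 7475 to 18275 in ESC. These sums moved with the stage as well as with the line, and their part in the results below was not tested.

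**Figure D1:**
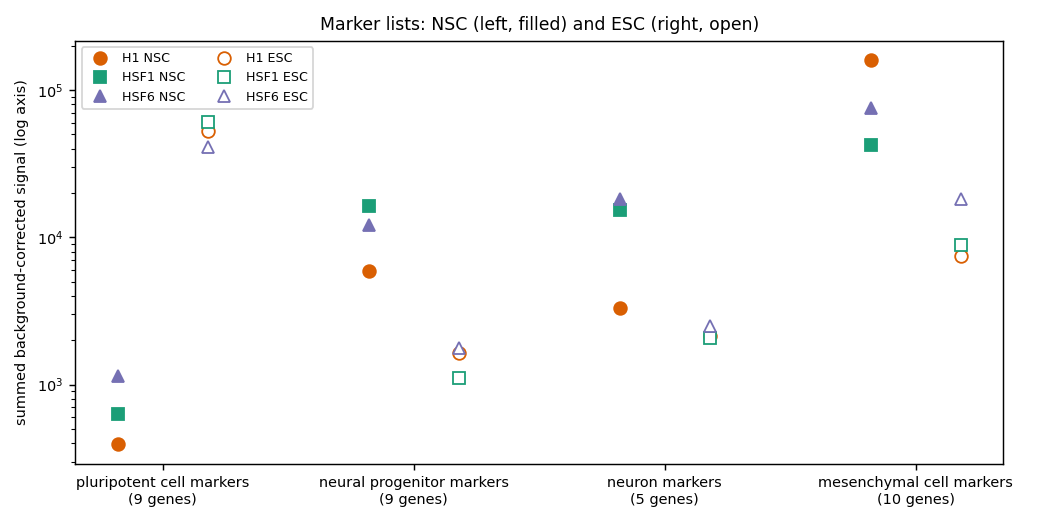
Summed background-corrected signal (log axis) of 4 marker lists in each culture, with NSC left of ESC and 1 point per line. The H1 NSC culture is the highest NSC point for mesenchymal markers (159770) and the lowest for neuron markers (3315).

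Of the 14 member probes, 10 exceeded the limit throughout the 3 arrays of NSC, of ESC or of both and could be tested, and these covered 8 of the 10 genes. NSC were compared with ESC by limma on log2 values over 17402 probes, and calls required both an adjusted p (Benjamini-Hochberg) under 0.05 and a change of at least 1.5-fold. In either direction 22.2% of all tested probes were called, or 22.7% with cell line as a block and 8.62% by the methods' t-test. Called lower in NSC were 3 probes, 2 of TEAD4 and 1 of CCN1, when 11.8% of all tested probes were called lower. None was called higher, when 10.3% of all tested probes were; at an unadjusted p under 0.05 there were 0 member probes higher and 4 lower (17.2% and 20.7% of all tested probes), and the methods' t-test also called 0 higher (3.49% of all). NSC and ESC signals did not overlap for 4 member probes, when they did not overlap for 44.5% of all tested probes. Of the 10 tested probes, 7 were above the limit on all 6 arrays, 2 passed the filter through ESC only (the second TEAD4 probe and ANKRD1) and 1 through NSC only (WWTR1). In these bulk cultures, fewer cells with a transcript and less of it per cell cannot be told apart.

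**Figure D2:**
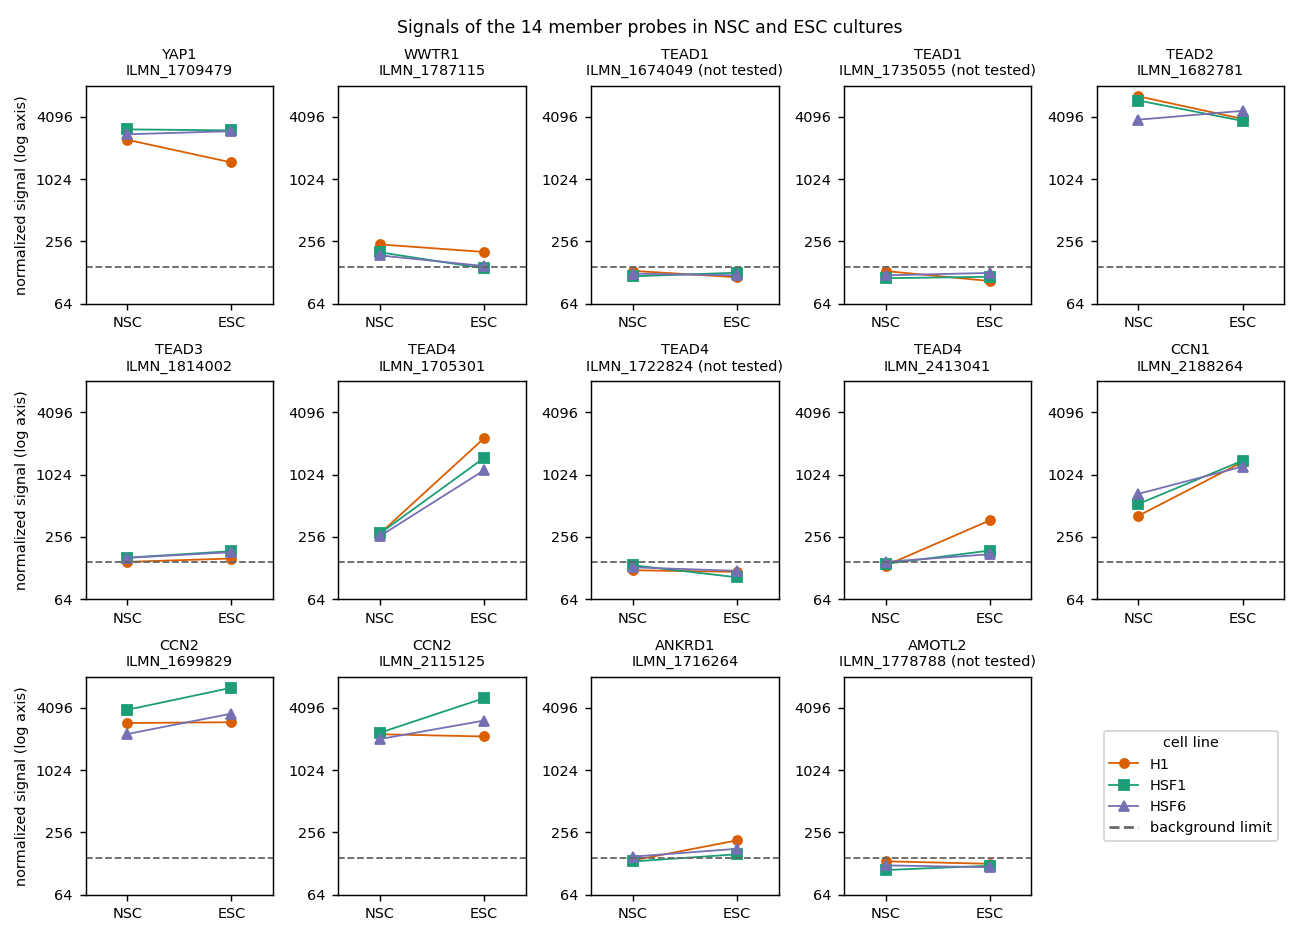
Deposited signal of every member probe (log axis) on each array, with NSC left of ESC and 1 point per line; the dashed line is the limit of 145. TEAD4 (277, 277 and 261 in NSC, 2310, 1491 and 1130 in ESC) and CCN1 separate by stage, while YAP1, TEAD2 and CCN2 overlap and TEAD1 and AMOTL2 lie under the limit throughout.

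YAP1, the main coactivator of the pathway, was strongly expressed in both stages. Its signal was 2461, 3100 and 2780 in H1, HSF1 and HSF6 NSC, against 1485, 3029 and 2977 in H1, HSF1 and HSF6 ESC. All cultures but the H1 ESC culture lay close together, and the stages overlapped. The log2 values averaged 11.38 ± 0.17 in NSC and 11.14 ± 0.62 in ESC (SD, n = 3 lines each). The log2 fold change of 0.24 (SE 0.35) was not called, with a limma adjusted p of 0.646 and a 95% interval of -0.58 to 1.05. The changes within H1, HSF1 and HSF6 were 0.77, 0.034 and -0.10, so that the sign of the mean rested on H1. Without the H1 ESC array the mean change was -0.12, and without both H1 arrays it was -0.034.

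WWTR1 encodes TAZ, the paralog of YAP1, and its probe was much closer to background. The signal was 240, 201 and 187 in H1, HSF1 and HSF6 NSC, against 202, 141 and 148 in H1, HSF1 and HSF6 ESC. Each line had the higher signal as NSC, but the H1 ESC culture exceeded 2 of the NSC cultures, and the HSF1 ESC signal was under the limit. The log2 fold change was 1.01 (SE 0.44) with a 95% interval of -0.022 to 2.04 and a limma adjusted p of 0.139, and it was not called. With the signal under the limit raised to the limit, the fold was 1.94, and without background correction the change was 0.37 log2. The call depended on 1 array. Without the H1 ESC culture the change was 1.48 with an adjusted p of 0.0361, and without both H1 cultures it was 1.26 with an adjusted p of 0.0234, and both would have been called.

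Among the TEAD factors, which carry the DNA-binding domain of the complex, TEAD4 was the gene called of the 3 that could be tested; differences between TEAD genes were not tested. Probe ILMN_1705301 gave signals of 277, 277 and 261 in H1, HSF1 and HSF6 NSC, against 2310, 1491 and 1130 in H1, HSF1 and HSF6 ESC. The NSC signals were nearly alike and every ESC signal was several times higher, with H1 highest. The mean log2 value was 7.32 ± 0.083 in NSC and 10.51 ± 0.56 in ESC (SD, n = 3 lines each), a log2 fold change of -3.19 (SE 0.32, 95% interval -3.94 to -2.43). TEAD4 was thus 9.10-fold lower in NSC, with a limma adjusted p of 0.00189, and it was lower in 3 of 3 lines, by -3.73, -3.06 and -2.77 log2 in H1, HSF1 and HSF6. The call was kept under each of 15 other settings, with log2 fold changes between -3.44 and -2.53 and adjusted p between 0.0025 and 0.0484, and the smallest change was that without background correction.

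The platform had 2 further TEAD4 probes, annotated to other RefSeq transcripts of the gene. Probe ILMN_2413041 read 135, 141 and 147 in H1, HSF1 and HSF6 NSC, against 370, 189 and 174 in H1, HSF1 and HSF6 ESC. It ran in the same direction in each line, with the H1 ESC culture far above the other cultures and 2 of the NSC signals under the limit. Its log2 fold change was -1.75 (SE 0.52), with a limma adjusted p of 0.04995 that stood at the threshold. With cell line as a block the adjusted p was 0.0583 and the call was lost, as it was in 11 of 14 other settings in all. Among single arrays, leaving out H1 NSC (0.086), HSF1 NSC (0.114), HSF6 NSC (0.109) or HSF1 ESC (0.0832) lost it. With signals under the limit raised to it, the probe was 3.03-fold lower in NSC, and without background correction its change was -0.71 log2. Probe ILMN_1722824 stayed under the limit on all 6 arrays, at 122 to 136 in NSC and 104 to 120 in ESC, and was not tested.

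TEAD4 lies on chromosome 12, and the study's methods report, from a preliminary array-based assay, duplicated segments on this chromosome in H1. Over 583 tested genes of chromosome 12, the H1 value minus the mean of the HSF lines had a median of -0.037 log2 in NSC and 0.28 log2 in ESC, against 0.017 in NSC and -0.047 in ESC over 10604 autosomal genes. For TEAD4 the same difference was 0.069 log2 in NSC and 0.89 in ESC by ILMN_1705301, and -0.26 in NSC and 1.89 in ESC by ILMN_2413041. Without both H1 arrays the fold change of ILMN_1705301 was -2.91 log2 (adjusted p 0.00365), and in the HSF lines alone it was lower in 2 of 2. By ILMN_2413041 the change in H1 minus that in the HSF lines was -2.15 log2. With 1 H1 array per stage, the error of this difference came from the spread between HSF1 and HSF6 only. It holds no replication of H1, so the test of the difference cannot separate H1 from a single deviating culture. No member probe passed the adjusted test of that difference, 1 had an unadjusted p under 0.05, and of all tested probes 0.259% passed the adjusted test and 15.8% had such an unadjusted p. The part of the duplication in these values was not tested.

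TEAD2, the TEAD member known from early mouse neural development, had signals of 6469, 5894 and 3846 in H1, HSF1 and HSF6 NSC, against 3913, 3742 and 4683 in H1, HSF1 and HSF6 ESC. It was high in both stages, and the stages overlapped because HSF6 went the other way from H1 and HSF1. Its log2 fold change was 0.37 (SE 0.29, 95% interval -0.30 to 1.04), with a limma adjusted p of 0.372. TEAD3 lay near background, at 147, 161 and 161 in H1, HSF1 and HSF6 NSC, against 158, 187 and 182 in H1, HSF1 and HSF6 ESC. Each line had the lower signal as NSC, but the stages overlapped. The log2 fold change of TEAD3 was -0.49 (SE 0.29, 95% interval -1.17 to 0.18), with a limma adjusted p of 0.248. Both TEAD1 probes were under the limit in all cultures, with signals of 113 to 133 in NSC and 106 to 128 in ESC, so TEAD1 could not be compared at this sensitivity. The signals of different probes depend on the probe, and the TEAD factors were not ranked by them.

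**Figure D3:**
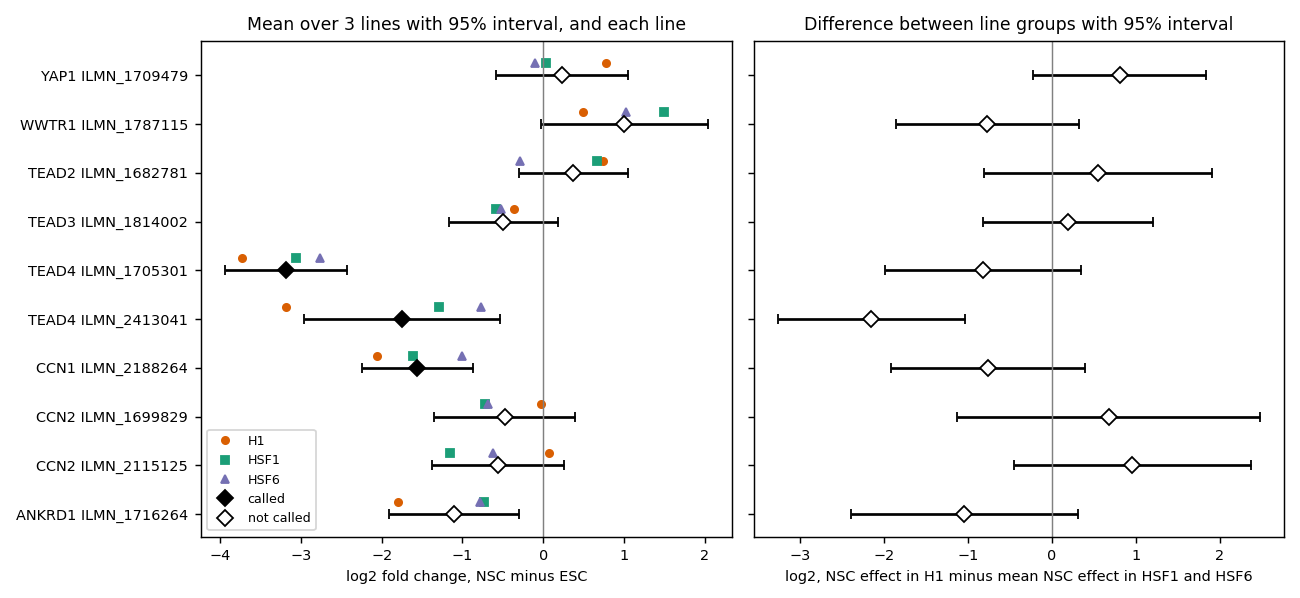
log2 fold change, NSC minus ESC, of the 10 tested member probes, with the limma 95% interval (bar) and the change within each line (points). The first TEAD4 probe (-3.19) and CCN1 (-1.56) have intervals well below 0. Those of the second TEAD4 probe and ANKRD1 also lie below 0, and those of YAP1, WWTR1, TEAD2, TEAD3 and CCN2 include 0. The intervals are not adjusted for the number of probes, and ANKRD1 was not called.

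Of the target genes, 3 of 4 were tested and all had negative changes in NSC, of which that of CCN1 was called. CCN1, a secreted matricellular protein and an immediate target of YAP and TEAD, was lower in NSC. Its signal was 410, 534 and 668 in H1, HSF1 and HSF6 NSC, against 1360, 1399 and 1227 in H1, HSF1 and HSF6 ESC. The stages did not overlap, the ESC cultures were nearly alike and the NSC cultures differed more, with H1 lowest. The mean log2 value was 8.69 ± 0.45 in NSC and 10.25 ± 0.11 in ESC (SD, n = 3 lines each). CCN1 was 2.94-fold lower in NSC (log2 fold change -1.56, SE 0.29, limma adjusted p 0.0125), with the largest change in H1 (-2.06 log2), a smaller one in HSF1 (-1.61 log2) and the smallest in HSF6. It was called in 13 of 15 other settings, and the call was lost when both HSF1 arrays (adjusted p 0.119) or both HSF6 arrays (0.0747) were left out, which leaves 2 arrays per stage.

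CCN2, the matricellular relative of CCN1 whose promoter holds 3 TEAD core matches, was read by 2 probes and was high in both stages. Probe ILMN_1699829 gave 2927, 3926 and 2290 in H1, HSF1 and HSF6 NSC, against 2978, 6416 and 3605 in H1, HSF1 and HSF6 ESC. Probe ILMN_2115125 gave 2280, 2359 and 2050 in H1, HSF1 and HSF6 NSC, against 2169, 5092 and 3092 in H1, HSF1 and HSF6 ESC. By both probes the HSF lines had the lower signal as NSC, H1 did not differ between stages by more than 0.076 log2, and the stages overlapped. The log2 fold changes were -0.48 (SE 0.37, 95% interval -1.35 to 0.39) and -0.56 (SE 0.35, 95% interval -1.38 to 0.25), with limma adjusted p of 0.380 and 0.275. A decrease of CCN2 as large as the mean one of CCN1 lay outside both intervals, though the difference between these genes was not tested.

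ANKRD1, a nuclear ankyrin repeat protein best known from heart muscle, had 2 TEAD core matches in its promoter and signals close to background. It read 137, 134 and 149 in H1, HSF1 and HSF6 NSC, against 215, 158 and 178 in H1, HSF1 and HSF6 ESC. The stages did not overlap, every line had the lower signal as NSC and only the HSF6 NSC signal exceeded the limit among NSC. The log2 fold change of -1.10 (SE 0.34, 95% interval -1.91 to -0.30) had a limma adjusted p of 0.0569 and was not called. With signals under the limit raised to it, the change was -0.91 log2, or 1.88-fold lower in NSC, and without background correction it was -0.38 log2. Leaving out the HSF1 ESC array was the only setting of 14 that called it, at -1.38 log2 with an adjusted p of 0.0486. AMOTL2, an angiomotin relative that binds YAP and is itself a YAP target, was under the limit on all 6 arrays, at 111 to 135 in NSC and 118 to 127 in ESC, and was not tested.

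For YAP1, WWTR1, CCN1 and CCN2, chosen by name, the genes whose log2 signals followed theirs most closely over the 6 arrays were found by Pearson correlation with 11011 other genes, each read by 1 probe. These are descriptions of the closest of many genes, all on the same 6 arrays. For YAP1 they were RNF130 (r = 0.999), WDR90 (0.998) and GSE1 (0.993), which shared its dip in the H1 ESC culture. For WWTR1 they were PCDHB17P (0.992), UBE2A (0.988) and ZBTB10 (0.987). For CCN1 they were TENT5B (0.998), ZGPAT (0.997) and COMTD1 (0.997), with log2 fold changes of -4.45, -0.98 and -2.38. For CCN2 by ILMN_1699829 they were ACACB (0.986), PAFAH2 (0.963) and FBXL6 (0.961).

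The genes around these effectors were counted from 5 lists holding 46 genes, with 1 probe for each gene. Over all 11012 tested genes, 23.8% were called, 11.4% higher in NSC and 12.4% lower, and the median log2 fold change was -0.059. At an unadjusted p under 0.05 there were 18.7% higher and 21.4% lower, and the methods' t-test called 3.75% higher and 5.39% lower. In the kinase core, 4 of 7 genes were tested (STK3, STK4, SAV1 and LATS2), none was called by limma or by the methods' t-test, and the median was 0.18. At an unadjusted p under 0.05 there were 0 higher and 1 lower, SAV1, the scaffold of the MST kinases, at -0.76 log2 with an adjusted p of 0.132.

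Among upstream and junctional regulators, 12 of 15 genes were tested, 2 were called higher and none lower, with a median of 0.17; at an unadjusted p under 0.05 there were 3 higher and 0 lower, and the methods' t-test called 0. Of the tested genes, 2 passed the filter through NSC only and 3 through ESC only. FAT4, 1 of the 3 higher at an unadjusted p, was under the limit on every ESC array and so entered the test only through NSC. Its signals there were close to the limit, at 159, 169 and 149 in H1, HSF1 and HSF6. With ESC signals raised to the limit, its change was 0.42 log2, against 0.87 as fitted. AMOT, the founding angiomotin, which holds YAP at junctions, read 1113, 798 and 584 in H1, HSF1 and HSF6 NSC, against 265, 241 and 377 in H1, HSF1 and HSF6 ESC. The stages did not overlap and H1 NSC was highest. AMOT was 3.95-fold higher in NSC (log2 fold change 1.98, SE 0.39, limma adjusted p 0.0142) and was called in 12 of 15 other settings, and of the single arrays only the removal of HSF1 ESC (0.0533) lost the call. MAP4K4, a kinase that can act on LATS beside the MST kinases, read 2432, 2321 and 2581 in H1, HSF1 and HSF6 NSC, against 945, 857 and 1463 in H1, HSF1 and HSF6 ESC. Its stages did not overlap, and the change was 1.30 log2 (SE 0.29, limma adjusted p 0.0214). A second MAP4K4 probe changed by 1.11 log2 with an adjusted p of 0.0461, which was 0.0710 with cell line as a block. MAP4K4 was called in 7 of 15 other settings by the first probe and in 3 of 15 by the second. The call of the first probe was lost without HSF1 NSC (0.0582), HSF6 NSC (0.0784), H1 ESC (0.0592) or HSF1 ESC (0.0661), and that of the second without any single array (0.058 to 0.134).

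Of the VGLL cofactors, which compete with YAP for TEAD factors or bind them in its place, 2 of 4 genes were tested and both were called higher in NSC, although VGLL3 passed the filter through NSC only. VGLL4, an antagonist of the YAP and TEAD complex, read 2969, 2310 and 2006 in H1, HSF1 and HSF6 NSC, against 804, 785 and 1005 in H1, HSF1 and HSF6 ESC. The stages were far apart, with all NSC cultures high. Its change was 1.61 log2 (SE 0.27, limma adjusted p 0.00883), called in 13 of 15 other settings and lost without both HSF1 arrays (0.102) or both HSF6 arrays (0.0673). VGLL3 was near background, at 186, 186 and 245 in H1, HSF1 and HSF6 NSC, against 135, 153 and 159 in H1, HSF1 and HSF6 ESC. Its change of 1.25 log2 (SE 0.34, limma adjusted p 0.0399) was 0.46 log2 without background correction and was called in only 2 of 14 other settings, and leaving out any single array but H1 NSC lost it (adjusted p 0.0639 to 0.125).

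Of 16 other genes known as YAP targets, 13 were tested, 4 were called higher in NSC and none lower, and the median was 1.59, or 1.58 with signals under the limit raised to it. Changes were positive for 9 of the 13. The median of 1.59 was the change of FJX1, which was not called and changed by 0.81, 3.45 and 0.49 log2 within H1, HSF1 and HSF6. TGFB2 and RBMS3 passed the filter through NSC only and NUAK2 through ESC only. At an unadjusted p under 0.05 there were 7 higher and 1 lower, and the methods' t-test called 2 higher and 0 lower. The count of 4 ranged between 1 without both HSF1 arrays and 7 without the H1 NSC array, and was 2 without HSF1 NSC, HSF6 NSC, H1 ESC or HSF1 ESC. The called genes were TGFB2 (a secreted growth factor), ARHGEF17, NT5E (the surface ectonucleotidase CD73) and ASAP1 (a regulator of Arf GTPases). TGFB2 read 277, 219 and 445 in H1, HSF1 and HSF6 NSC, against 118, 128 and 132 in H1, HSF1 and HSF6 ESC. All ESC signals were under the limit, so TGFB2 entered the test only through NSC, where it is high. It was called (limma adjusted p 0.00551), 5.14-fold higher in NSC on the background-corrected scale with ESC signals raised to the limit, and its fitted change of 2.88 log2 was 1.25 log2 without background correction. ARHGEF17 read 364, 312 and 294 in H1, HSF1 and HSF6 NSC, against 154, 158 and 164 in H1, HSF1 and HSF6 ESC, a change of 2.15 log2 (SE 0.25, adjusted p 0.00280) that was 1.02 log2 without background correction, and it was called in 14 of 15 other settings and lost without both HSF1 arrays (0.0601). NT5E read 527, 863 and 1445 in H1, HSF1 and HSF6 NSC, against 220, 298 and 465 in H1, HSF1 and HSF6 ESC, and ASAP1 read 4012, 2017 and 1768 in H1, HSF1 and HSF6 NSC, against 854, 653 and 1149 in H1, HSF1 and HSF6 ESC. The stages did not overlap for either gene, although the NSC cultures differed widely. The changes of NT5E and ASAP1 were 1.95 log2 (SE 0.55, adjusted p 0.0431) and 1.63 log2 (SE 0.41, adjusted p 0.0296), called in 5 and 6 of 15 other settings. A second ASAP1 probe changed by 1.12 log2 and was not called (adjusted p 0.0583). Both calls were lost without HSF1 NSC (0.1 for NT5E and 0.0595 for ASAP1), HSF6 NSC (0.128 and 0.053), H1 ESC (0.115 and 0.0774) or HSF1 ESC (0.113 and 0.0925). F3, the coagulation factor receptor known as tissue factor, was not called, at -1.53 log2 with an adjusted p of 0.0921 and changes of -3.13, -0.46 and -0.99 log2 within H1, HSF1 and HSF6. NT5E is also used as a mesenchymal cell marker, and 8 of the 10 mesenchymal markers were called higher in NSC, the same direction as these 4 targets. Of the 8, 4 passed the filter through NSC only. The other markers, TAGLN (-0.99 log2) and THY1 (-0.52 log2), had negative changes and were not called. A second TAGLN probe changed by -1.83 log2 and was not called either (limma adjusted p 0.0577). In H1 NSC, which had the highest mesenchymal sum, ASAP1 and ARHGEF17 were at their highest, NT5E was the lowest of the NSC cultures and TGFB2 lay between. The part of cell composition in these values was not tested.

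Of the other CCN family genes, 1 of 4 was tested. CCN3 changed by 0.92 log2 with a limma adjusted p of 0.154 and was not called.

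**Figure D4:**
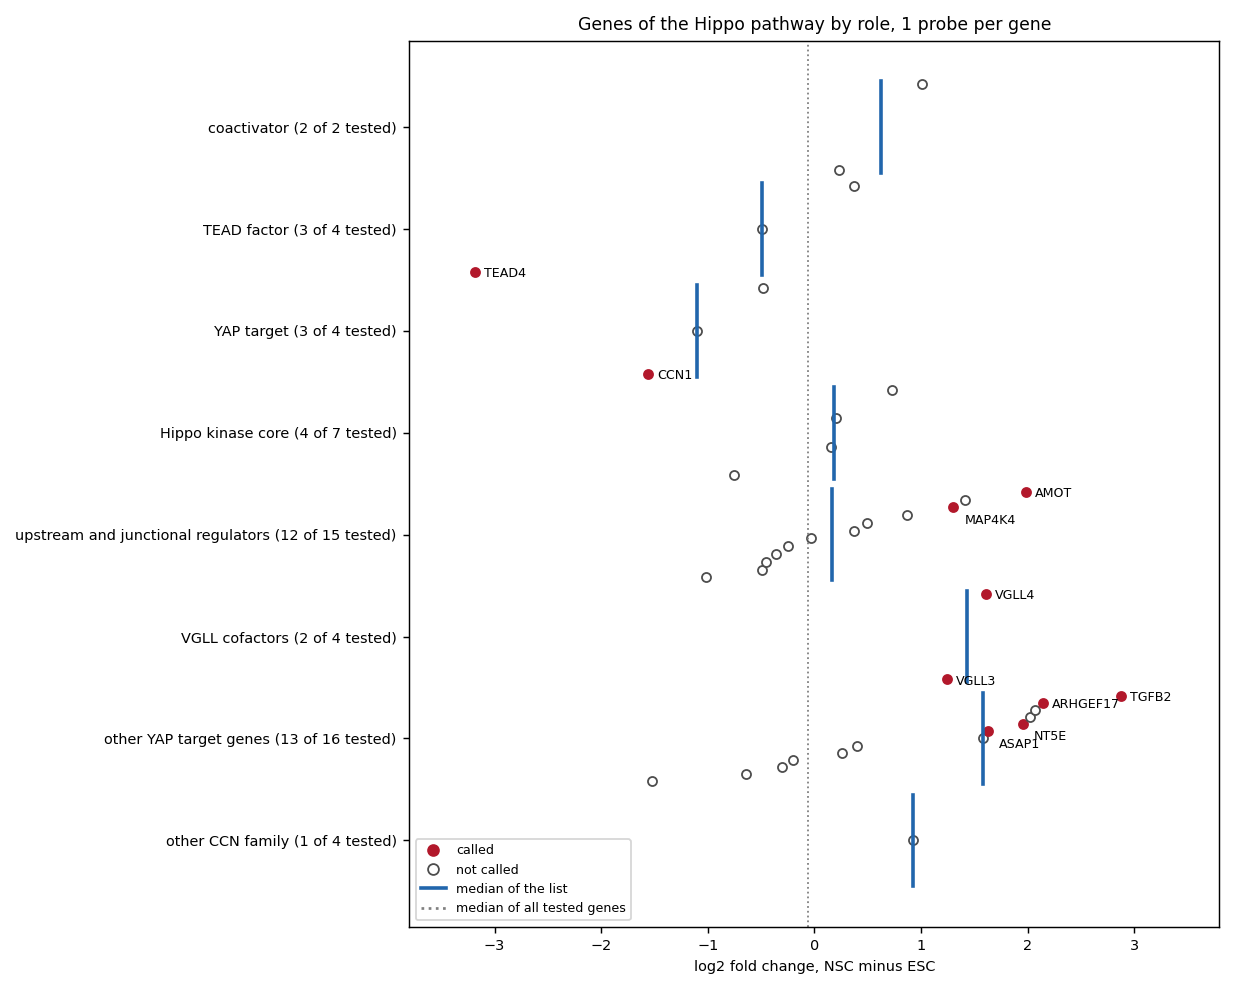
log2 fold change, NSC minus ESC, of each tested gene by role, 1 probe per gene; filled points were called, blue bars are the medians of the lists and the dotted line is the median of all tested genes (-0.059). TEAD4 and CCN1 are the called genes below 0, and the 8 called genes of the other lists lie above 0.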

How the data were processed

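RNA of 6 cultures, 3 NSC and 3 ESC, was labelled with biotin and hybridised to Illumina Human-6 arrays. The authors deposited 1 table of linear signal intensities, 48803 probes by 6 arrays, made with BeadStudio according to the submitters' processing notes. The normalisation method is not given in the sources used here; sorted signals differed between arrays by at most 0.407, as after quantile normalisation, which hides any difference in total signal. A second table held 24 columns of per-array values whose names match no sample and was not used, so no detection p-values were used here. Arrays have no read depth, so precision depends on how many were run.

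The mode of signals under 300 was taken as background (127) and the spread below it as its SD (11.2). A signal above 145 (a one-sided probability of 0.05) counted as above background. Signals were corrected by normexp with an offset of 16 and log2 transformed (limma 3.58.1, R 4.3.3). Probes above the limit on all 3 arrays of a stage were tested (17402) by lmFit and eBayes without a block. Called probes had a Benjamini-Hochberg adjusted p under 0.05 and a change of at least 1.5-fold. Same-line NSC and ESC deviations correlated at 0.17 (H1), 0.22 (HSF1) and 0.10 (HSF6), so the lines paired the arrays only weakly. The main fit did not use this pairing, and the fit with cell line as a block did. Probes had 1 gene symbol (27578), several (13) or none (21212) in the platform annotation. Genes with several probes entered list counts by the tested probe of highest mean signal.

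All members were named with every probe, and from each pathway list all called genes, with values for up to 4 of the largest changes. For YAP1, WWTR1, CCN1 and CCN2 the 3 most correlated genes were named. SAV1, FAT4, CCN3, F3, FJX1, TAGLN and THY1 were named after their values were seen. Members and lists were chosen with earlier results of these data known. Alternatives were no background correction, an offset of 50, no filter, a filter on all 6 arrays, cell line as a block, the methods' t-test, and leaving out each array or both arrays of a line.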

Additional observations from a re-analysis of the deposited data

How the results depend on the processing

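The 3 called member probes became 2 without background correction, with an offset of 50, without a filter, with the filter on all 6 arrays, with cell line as a block and by the methods' t-test. Leaving out single arrays or both arrays of a line gave 1 to 4, with 1 when both HSF1 or both HSF6 arrays were left out. The first TEAD4 probe was called in each of these settings. The 3860 called probes became 2994 without background correction, 3575 with an offset of 50, 2591 without a filter, 2521 with the filter on all 6 arrays and 1500 by the methods' t-test, and lay between 1531 and 4466 when single arrays were left out. Without both arrays of a line they were 325 (HSF1), 530 (HSF6) and 4561 (H1). With the replicate block of cell line, the lines pairing the arrays, 3951 probes were called. Among member probes the block changed no call other than that of the second TEAD4 probe (ILMN_2413041). YAP1 changed sign when H1 arrays were left out, at -0.12 without the H1 ESC array and -0.034 without both, and its change reached 0.42 without the HSF1 ESC array. No other member probe changed direction. The added settings for pathway genes were chosen after seeing the data. Signals under 145 cannot be told from background, which limits TEAD1, AMOTL2, ANKRD1, WWTR1, TEAD3 and the second TEAD4 probe, and 3 lines per stage limit every comparison.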
